A study of Homo sapiens with 12 samples.

Results

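The 10 genes described here encode inflammatory chemokines and cytokines: CXCL1, CXCL2, CXCL3, CXCL5, CXCL6, CXCL8, CCL2, CCL20, IL6 and IL1B. They were found by symbol among the 58051 genes of the count tables, and all 10 were present. They were selected on measured values, namely the log2 changes with a microRNA mimic, which for several of them ran in opposite directions in 786-O and A-498 cells. Their mimic responses are therefore described below without a test. RNA-seq was performed on 12 libraries from 3 human renal cancer lines, all labelled as clear cell renal cell carcinoma. The mimic, a small duplex RNA that acts as extra miR-29, was given to 786-O and to A-498, and a control mimic was given to their control cells. The 786-O groups had 1 library each and the A-498 groups 2 each. The ACHN cells instead received an oligonucleotide that blocks miR-29 (the miR-29 inhibitor) or a control inhibitor, with 3 libraries for each. Each reagent was used at 10 nM and RNA was extracted after 48 h, so every library, control or treated, comes from transfected cells. The replicates are biological replicates by the study's methods, and the 786-O values have no replicate check.

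Each library held between 39919554 and 70027392 reads in genes. Of 10 known miR-29 targets used to check the labels, 9 passed the filter in each line: all 9 were lower with the mimic in A-498 and higher with the inhibitor in ACHN (edgeR quasi-likelihood test, adjusted p under 0.05), and all 9 had a negative log2 ratio in 786-O. Of 12 renal markers, 9 or 10 reached 1 CPM (counts scaled to the reads in genes, with TMM factors set in each line by itself) in every library of each group. PAX8, a renal lineage factor, lay between 70.9 and 637 CPM, whereas CA9, a marker of clear cell carcinoma, reached at most 0.313 CPM in 786-O and ACHN against 7.36 to 11.4 CPM in A-498. The leukocyte markers summed to 2.72 to 7.49 CPM over 8 genes in every group, with PTPRC, which marks all leukocytes, at no more than 0.238 CPM. In A-498 that sum went from 2.72 to 3.02 CPM in the controls to 4.74 to 5.33 CPM with the mimic, and in each group 1 of the 8 genes reached 1 CPM in every library (CSF1R in 786-O, ITGAM in A-498 and ACHN). The 3 fibroblast markers summed to 22.9 and 9.56 CPM in control and mimic 786-O, to 1.63 to 1.78 and 0.592 to 0.714 CPM in control and mimic A-498, and to 1.58 to 2 and 2.87 to 3.62 CPM in control and inhibitor ACHN, and the 3 endothelial markers to at most 0.492 CPM. The part of these genes in the results below was not tested. In bulk libraries, a lower level in every cell and fewer expressing cells cannot be told apart.

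Chemokines are small secreted proteins that bind receptors on white blood cells and draw them into tissue. CXCL1, CXCL2, CXCL3, CXCL5, CXCL6 and CXCL8 share the ELR motif before their paired cysteines and attract neutrophils through CXCR1 and CXCR2. CCL2 attracts monocytes through CCR2, and CCL20 attracts CCR6-bearing lymphocytes and dendritic cells. IL6 signals through gp130 to STAT3, and IL1B is a secreted activator of NF-kappaB that is cleaved from its precursor by caspase-1. Transcription of these genes is classically driven by NF-kappaB with AP-1 and C/EBP factors, and their transcripts are classically short-lived because AU-rich elements in the 3′ UTR recruit decay factors. MicroRNAs of the miR-29 family are best known for lowering collagen and other matrix transcripts through sites in the 3′ UTR.

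The mature sequences of the 3 family members, from RefSeq on GRCh38.p14, are shown because the seed (bases 2 to 8, in capitals) is what the mimic and the inhibitor act through, and it is shared by all 3.
hsa-miR-29a-3p: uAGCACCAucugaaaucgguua
hsa-miR-29b-3p: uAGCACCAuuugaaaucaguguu
hsa-miR-29c-3p: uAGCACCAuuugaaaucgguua

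None of the 10 genes carried the match to this seed, TGGTGCT, in the 3′ UTR of its canonical transcript (GENCODE v44, sense strand). The same match was present in 14.0% of the 19538 canonical 3′ UTRs examined. These UTRs ranged from 376 nt (CCL2) to 1995 nt (CXCL5), against a median of 1064 nt over all genes. The absence says only that these letters are not in these UTRs.

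The UTRs did hold AU-rich words. The pentamer ATTTA occurred at least 3 times in 9 of the 10 genes, CCL2 being the exception with 1, whereas 41.5% of all canonical 3′ UTRs reached 3. The longer nonamer TTATTTATT, which contains that pentamer, was found in CXCL1, CXCL2, CXCL3, CXCL8 and IL1B, that is in 5 of 10 genes against 8.44% of all canonical 3′ UTRs. Both words were searched on the sense strand only, and overlapping matches were counted separately. One match per gene is printed below in capitals, each at the GRCh38 coordinates of its window, because these genes include most of those with the largest changes in A-498. The windows of CXCL1 and CXCL2 are identical, and the genes are close paralogs.
CXCL1, chr4:73871014-73871040, plus strand: tgtcagttgTTATTTATTgaaatgatt
CXCL2, chr4:74097247-74097273, minus strand: tgtcagttgTTATTTATTgaaatgatt
CXCL3, chr4:74036774-74036800, minus strand: tgtcagttgTTATTTATTcaaattatc
CXCL8, chr4:73742665-73742691, plus strand: tgtaaagtaTTATTTATTtgaatctac
IL1B, chr2:112829996-112830022, minus strand: cttccctatTTATTTATTtatttgttt

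**Figure D1:**
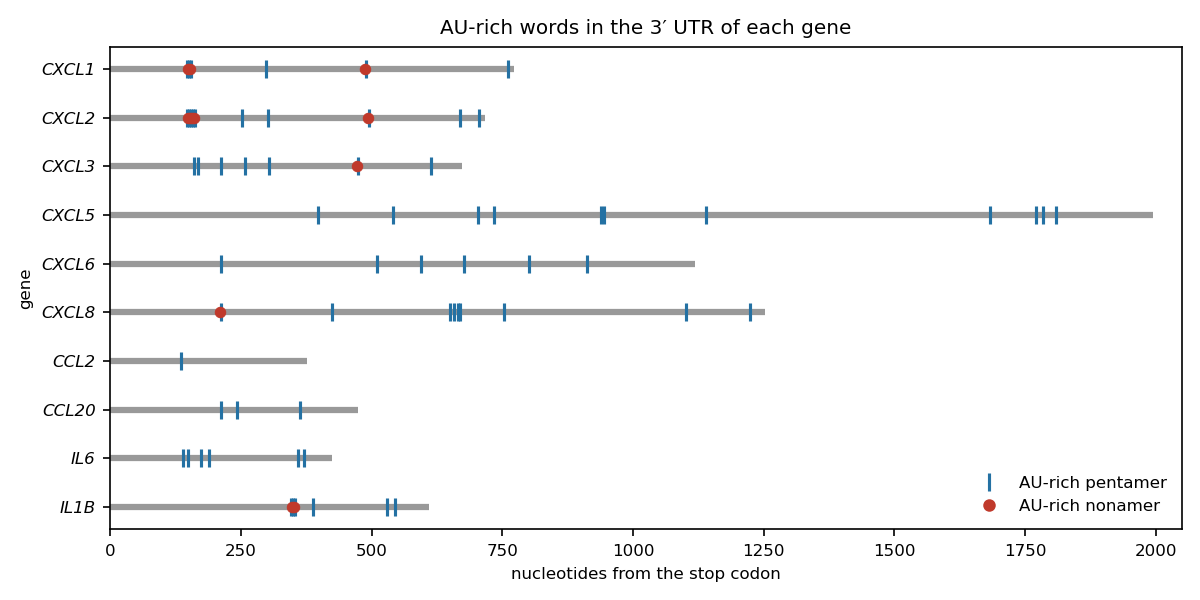
The 3′ UTR of each gene is drawn as a bar in nucleotides from the stop codon, with AU-rich pentamers as ticks and nonamers as dots. CXCL2 has 5 nonamers and CXCL1 has 3, while CCL2 has a single pentamer in 376 nt.

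The promoters shared a different feature. RefSeq windows running from 250 bases before to 50 bases after the start were found for 9 of the 10 genes, all but CCL2. Searched on both strands, the kappaB consensus occurred in 7 of these 9 windows, against 11.3% of 35116 promoters of the same length. The core GGAATTTCC, also searched on both strands and in 5 of these genes part of a kappaB match, was present in 6 of 9, all of them CXC genes, against 0.461% of all promoters. The windows of CXCL1, CXCL2 and CXCL3 are nearly the same, as are those of CXCL5 and CXCL6. The kappaB and core matches are therefore not independent between genes, and nothing is read from their shares. The AP-1 word TGANTCA was found in CXCL8 only (7.71% of all promoters), and the C/EBP word TTGCNNAA in CXCL2, IL6 and IL1B (10.5%). The windows around the match, in capitals, are printed on the strand of each gene because these genes moved together in A-498; CXCL5 and CXCL6, which had too few counts there, have the same core. For IL6 the kappaB match itself is shown, since it lacks the core; CCL20 has a kappaB match as well.
CXCL1, chr4:73869295-73869343: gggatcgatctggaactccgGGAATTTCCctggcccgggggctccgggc
CXCL2, chr4:74099244-74099292: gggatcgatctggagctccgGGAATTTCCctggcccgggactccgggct
CXCL3, chr4:74038739-74038787: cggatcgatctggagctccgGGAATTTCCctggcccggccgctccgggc
CXCL5, chr4:73998739-73998787: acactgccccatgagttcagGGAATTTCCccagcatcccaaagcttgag
CXCL6, chr4:73836569-73836617: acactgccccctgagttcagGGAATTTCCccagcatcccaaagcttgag
CXCL8, chr4:73740458-73740506: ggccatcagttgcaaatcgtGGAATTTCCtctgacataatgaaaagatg
IL6, chr7:22727107-22727156: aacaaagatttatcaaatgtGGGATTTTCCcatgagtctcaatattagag

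Levels of the 10 genes under the control reagents differed widely between the lines. The genes were chosen on changes of mimic over control, so the 786-O and A-498 control libraries entered that choice as denominators. The tests between controls below are therefore not independent of the choice. To set genes beside each other, CPM was divided by the length of all annotated exons of a gene merged (4321 nt for IL6, 1362 nt for CXCL1). That length can exceed the transcript that is expressed, so the order of genes within a line is approximate. ACHN controls were led by CXCL1 at 42.6 CPM per kb and CXCL2 at 35.2. CXCL8 at 16.4, CCL2 at 11.4, IL6 at 2.50 and CXCL3 at 1.36 followed. No 2 neighbours in that order overlapped over the 3 libraries. In A-498 controls the order was CCL2 (16.6 CPM per kb), CXCL2 (3.22), CXCL8 (1.78), IL6 (0.642), CXCL1 (0.625), IL1B (0.439) and CXCL3 (0.319), and the values of IL6 and CXCL1 overlapped between the 2 libraries. The single 786-O control had CXCL8 at 28.9 and CXCL5 at 28.1 CPM per kb, then CCL2 (11.9), CXCL1 (10.3), CXCL2 (5.24), IL6 (2.48) and CXCL3 (0.354).

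Each line had its own pattern. CXCL5 was read 3053 times in the 786-O control and at most 3 times in any A-498 or ACHN library. IL1B was a transcript of A-498, with 70 and 79 counts in its controls. The 3 ACHN controls had 0 IL1B counts, which makes the A-498 level at least 55.9-fold higher against a floor of 3 counts over the ACHN group. CXCL6 had 0 to 2 counts in all 12 libraries, and a count of 0 allows up to 0.0428 to 0.0752 CPM depending on the library. CCL20 stayed between 0 and 16 counts.

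The control levels were tested between lines in 1 fit over the 6 control libraries (edgeR quasi-likelihood test, Benjamini-Hochberg adjusted over all genes). Of the 9 members tested, 8 differed between A-498 and ACHN, where 75.3% of all genes did, 7 between 786-O and A-498 (74.7% of all genes), and 5 between 786-O and ACHN (73.6%), so the shares are near those of all genes. CXCL1 showed the largest difference among members read in every line, being 71.3-fold lower in A-498 than in ACHN (log2 fold change -6.16 ± 0.0974 SE, adjusted p = 4.74e-31). CXCL8 was 9.67-fold lower (adjusted p = 4.43e-23), CXCL2 was 11.5-fold lower (6.34e-27), CXCL3 was 4.47-fold lower (1.29e-11) and IL6 was 4.10-fold lower (2.58e-17) in A-498 than in ACHN. CCL2 went the other way and was 1.39-fold higher in A-498 (adjusted p = 1.52e-08). The control 786-O library also exceeded A-498 in CXCL1 (18.2-fold), CXCL8 (17.9-fold) and IL6 (4.26-fold). Between 786-O and ACHN, neither CCL2 (log2 fold change 0.14 ± 0.0779, adjusted p = 0.0956) nor IL6 (0.06 ± 0.114, adjusted p = 0.659) passed the test. The lone 786-O library was assumed to vary like the others. Cell line and control reagent cannot be told apart in the contrasts with ACHN. The labels name no sequencing run, so a difference in run between the lines could not be examined. CCL20 was called lower in A-498 than in ACHN (adjusted p = 0.025) on 0 to 9 counts per library, and that call was lost with DESeq2 (adjusted p = 0.131).

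**Figure D2:**
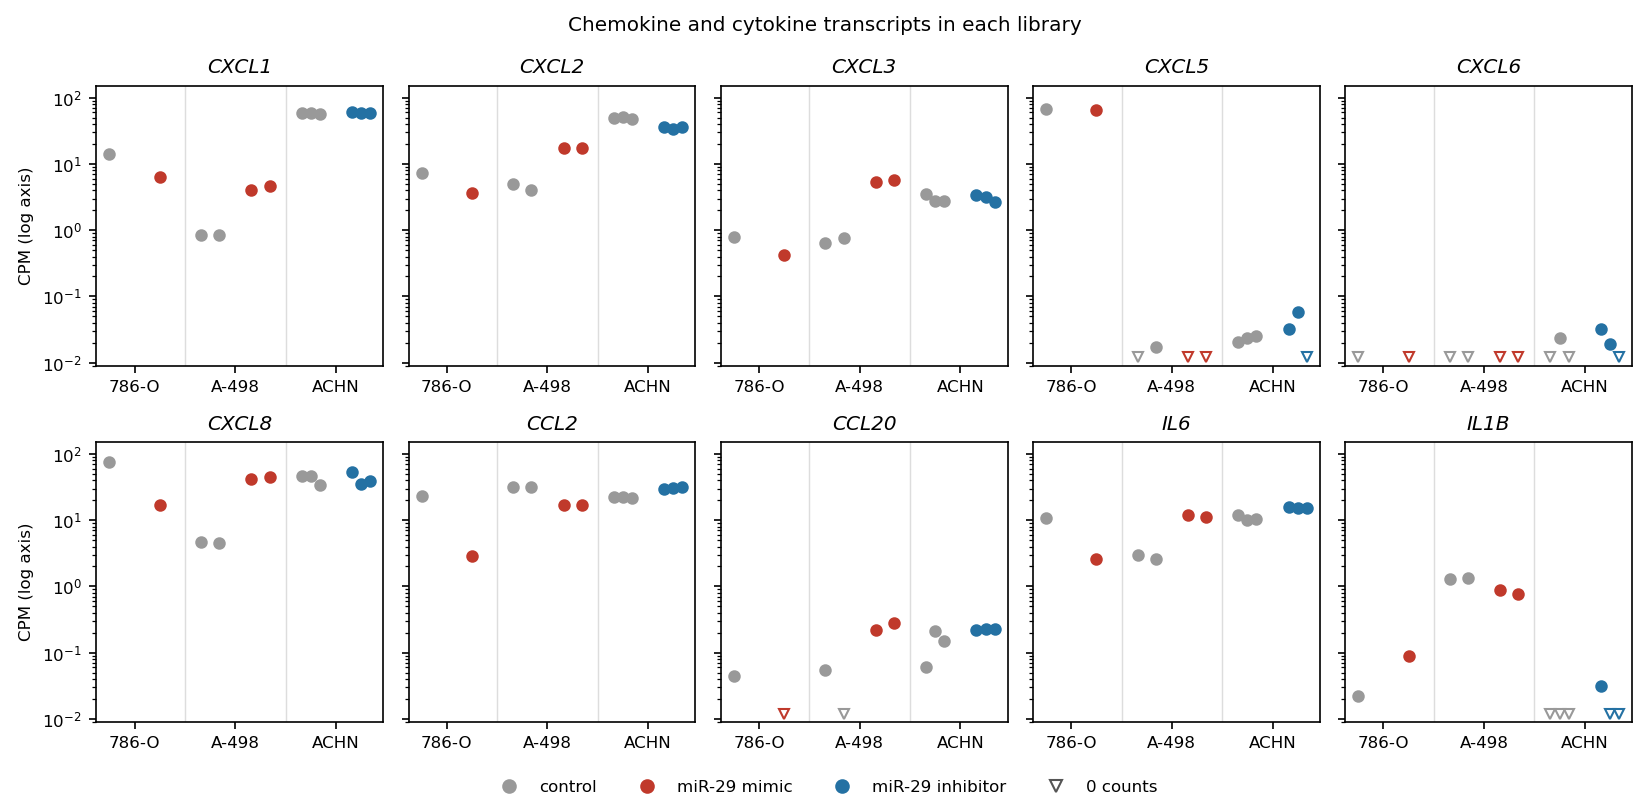
Each panel plots one gene in CPM on a log axis, with 1 point per library and open triangles for libraries with 0 counts. CXCL1, CXCL2, CXCL3, CXCL8 and IL6 move down with the mimic in 786-O and up with the mimic in A-498, whereas ACHN points lie close together.

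CXCL8, the main human neutrophil chemokine (interleukin 8; ENSG00000169429, GRCh38 chr4:73740519-73743716), showed the contrast between the lines most clearly. In 786-O it was at 74.8 CPM in the control library and 17.0 CPM in the mimic library. In A-498 it was at 4.69 and 4.54 CPM in the controls and at 42.4 and 44.2 CPM with the mimic. The mimic thus went with a 4.40-fold lower level in 786-O (log2 ratio -2.14) and a 9.38-fold higher level in A-498 (log2 fold change 3.23 ± 0.0709 SE). With the mimic, A-498 stood well above 786-O, reversing the order of their controls. In ACHN, CXCL8 lay at 45.7, 47.1 and 34.5 CPM in the controls and at 53.1, 35.6 and 38.6 CPM with the inhibitor, and the groups overlapped.

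IL6 (ENSG00000136244, chr7:22725884-22732002) followed the same course at lower levels. It was at 10.7 CPM in the 786-O control and 2.61 CPM in the 786-O mimic library, and it went from 2.95 and 2.60 CPM to 11.8 and 11.3 CPM in A-498. The 2 lines exchanged places, so that mimic-treated A-498 had about the level of control 786-O and the reverse. The log2 ratio in 786-O was -2.02 and the log2 fold change in A-498 was 2.06 ± 0.0999.

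CXCL1, CXCL2 and CXCL3 (ENSG00000163739, ENSG00000081041 and ENSG00000163734), the closely related GRO chemokines, lie with the other CXC members on chromosome 4 between 73740519 and 74099196. CXCL1 was at 14.1 CPM in the 786-O control and 6.39 CPM with the mimic, and in A-498 it was at 0.853 and 0.850 CPM in the controls and 4.03 and 4.72 CPM with the mimic. CXCL2 fell from 7.32 to 3.62 CPM in 786-O, and in A-498 it went from 4.89 and 4.10 CPM to 17.5 and 17.1 CPM. CXCL3 was the lowest of the 3 in 786-O, at 0.786 and 0.424 CPM (35 and 19 counts), and in A-498 it rose from 0.649 and 0.765 CPM to 5.41 and 5.68 CPM. In A-498 none of the 3 overlapped between groups, but the genes were chosen on these values. The groups had 2 libraries each and the share of all genes without overlap was not counted, so nothing is read from it. Their log2 ratios in 786-O were -1.13 for CXCL1, -1.01 for CXCL2 and -0.82 for CXCL3, and their log2 fold changes in A-498 were 2.36 ± 0.158, 1.95 ± 0.0911 and 2.96 ± 0.149. Reads from near-identical stretches of these paralogs may have been set aside or split by the counting, so their separate values are uncertain. Reads of low alignment quality were counted to no gene. They made up 25.8% and 24.7% of the control and mimic 786-O libraries, against 16.7% to 20.1% of each A-498 and ACHN library. The part of this difference between the lines was not tested.

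CXCL5 (ENSG00000163735) is another ELR chemokine of the same cluster and the paralog of CXCL6. In the 786-O control its CPM was near that of CXCL8 (74.8 CPM), yet it hardly differed with the mimic there. It was at 68.6 CPM in the control and 65.4 CPM in the mimic library, a log2 ratio of -0.07. CXCL6 (ENSG00000124875) gave no measurement in any comparison.

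CCL2 (ENSG00000108691, chr17:34255274-34257208) did not take part in the opposite response and was lower with the mimic in both lines. In 786-O it went from 23.1 CPM to 2.88 CPM, a 7.91-fold lower level and the largest shift of any member in that line (log2 ratio -2.98). In A-498 it went from 32.2 and 32.1 CPM to 16.8 and 16.9 CPM (log2 fold change -0.93 ± 0.0583), with little spread within the groups. IL1B (ENSG00000125538, chr2:112829751-112836816), readable only in A-498, was at 1.30 and 1.34 CPM in the controls and at 0.888 and 0.766 CPM with the mimic (log2 fold change -0.67 ± 0.200). CCL20 (ENSG00000115009, chr2:227805739-227817564) had 3 and 0 counts in the A-498 controls and 14 and 16 counts with the mimic. The ratio was 9.87 with the libraries of each group pooled. Its log2 fold change of 3.13 ± 0.768 became 6.91 without control replicate 1 and 2.11 without control replicate 3, and it passed the filter only through the mimic libraries.

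The counts of members past 2-fold describe the choice of the genes and nothing is read from them. In 786-O, 7 of 10 members had enough counts, of which 5 were at least 2-fold lower (8.96% of all genes) and 0 at least 2-fold higher (6.73%). In A-498, 8 of 10 passed the filter, of which 6 were at least 2-fold higher (4.81% of all genes) and 0 at least 2-fold lower (4.23%). CXCL2 at -1.01 in 786-O lies just inside the 2-fold limit, and outside it with a prior count of 10 (-0.97) or with scaling by total alone, and CXCL3 at -0.82 in 786-O and CCL2 at -0.93 in A-498 lie just outside it. Of 6 members with a value in both lines, 5 were lower in 786-O and higher in A-498, and 4 of these passed 2-fold in both (CXCL1, CXCL2, CXCL8 and IL6), as did 0.383% of the 17473 genes with a value in both.

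**Figure D3:**
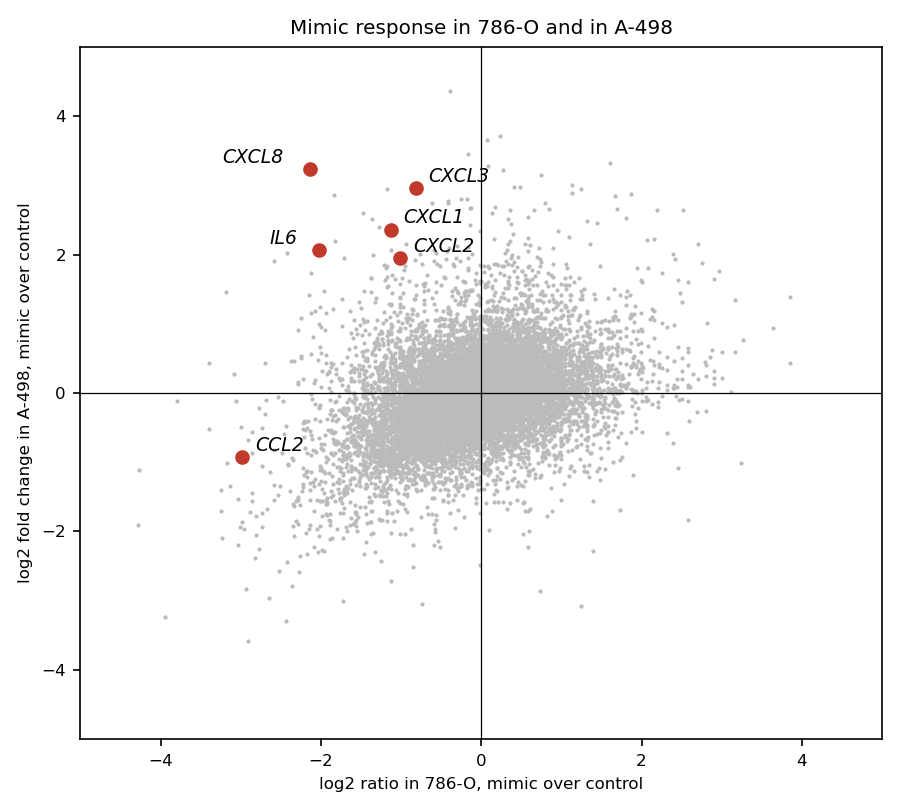
Every gene with a value in both mimic comparisons is a grey point, with the log2 ratio in 786-O on the x axis and the A-498 log2 fold change on the y axis, and 6 chemokine and cytokine genes in red. Of the red points, 5 lie in the upper left quadrant, and CCL2 lies at the lower left.

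The ACHN comparison asks the converse question, whether blocking miR-29 shifted these genes. Its libraries were not the ground of their choice, but earlier results of these data were known when the genes were chosen. The ACHN tests are therefore not fully independent of the choice. Of the 7 members that passed the filter, 2 were called higher (17.3% of all genes tested) and 1 lower (14.4%). CCL20 passed the filter only through the inhibitor libraries, where it had 12 to 16 counts.

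CCL2 rose in ACHN. It was at 22.1, 22.6 and 21.3 CPM in the controls and at 29.7, 30.3 and 31.5 CPM with the inhibitor. The log2 fold change was 0.47 ± 0.0525 SE (edgeR quasi-likelihood test, adjusted p = 1.54e-06). IL6 also rose, from 11.8, 10.2 and 10.3 CPM to 15.9, 15.0 and 15.4 CPM (log2 fold change 0.52 ± 0.072, adjusted p = 2.27e-05). CXCL2 fell, from 49.0, 51.5 and 47.2 CPM to 36.3, 33.2 and 36.5 CPM (log2 fold change -0.48 ± 0.0508, adjusted p = 9.44e-07). CCL2 was thus lower with the mimic in 2 lines and higher with the inhibitor in the third, whereas IL6 was higher in treated cells of both A-498 and ACHN, which received opposite reagents.

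The other CXC genes of ACHN gave no call. CXCL1 was at 59.3, 58.6 and 56.2 CPM in the controls and at 60.1, 58.2 and 59.1 CPM with the inhibitor, with a log2 fold change of 0.03 and a 95% interval of -0.06 to 0.11 (adjusted p = 0.673). This interval is narrow, so a shift of the size seen for CXCL2 in the same cells lies outside it. CXCL3, between 2.65 and 3.51 CPM, had a log2 fold change of 0.02 with an interval of -0.23 to 0.28 (adjusted p = 0.916). CXCL8 had an interval of -0.23 to 0.23 (adjusted p = 0.997), and CCL20 one of -0.13 to 1.56 (adjusted p = 0.233). The intervals are normal ones, built on the SE of the edgeR fit. Sequencing depth differed between the groups without overlap, from 39919554 to 48626762 reads in genes in the controls and from 52369886 to 70027392 with the inhibitor. With every library thinned to the shallowest, CCL2 (0.45), IL6 (0.50) and CXCL2 (-0.45) kept their log2 fold changes nearly unaltered and their calls.

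**Figure D4:**
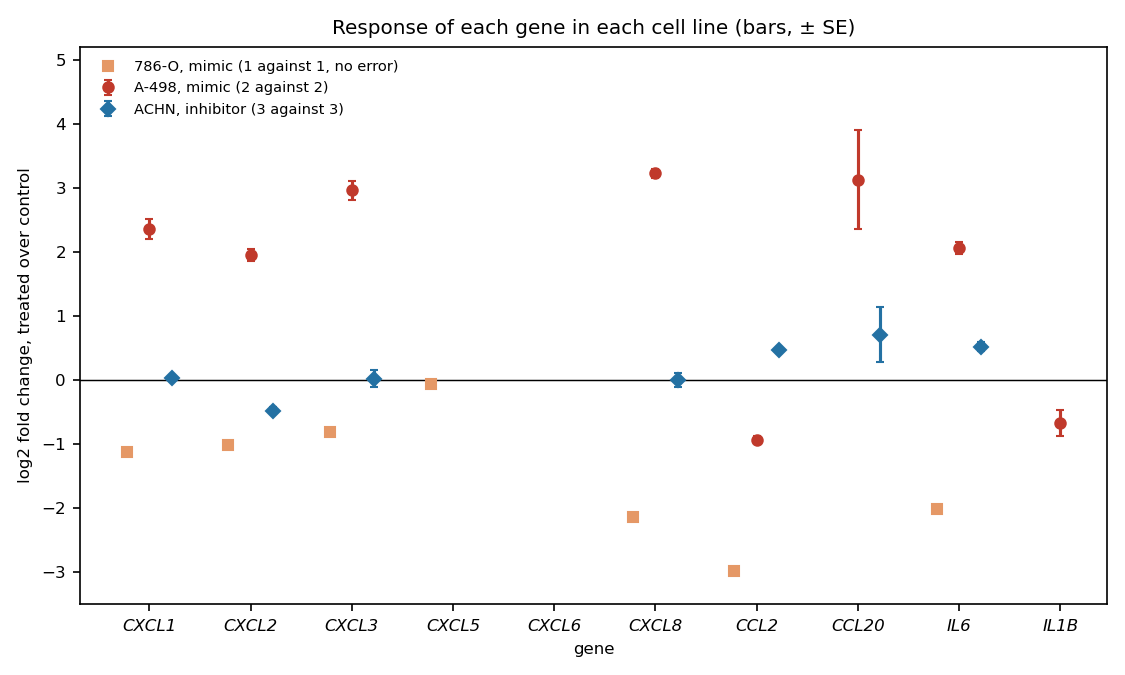
Log2 fold change of each gene, treated over control, in 786-O (squares, no error), A-498 (circles) or ACHN (diamonds), with bars of ± SE. CXCL8 ranges from -2.14 in 786-O to 3.23 in A-498, and the ACHN values of every gene except CCL20 lie within -0.48 and 0.52.

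Genes of the same pathways were examined next in lists of other ligands, receptors, signalling proteins, mRNA decay factors, inflammasome genes and effectors, 153 genes in all. In A-498, 115 were tested, of which 58 were called higher (25.5% of all genes) and 29 lower (27.0%) with the mimic (edgeR quasi-likelihood test). In ACHN, 106 were tested, of which 37 were higher (17.3%) and 13 lower (14.4%) with the inhibitor. In 786-O, 113 had a value, of which 25 were at least 2-fold lower (8.96% of all genes) and 6 at least 2-fold higher (6.73%), with no test. The median log2 change over the listed genes was 0.22 in A-498, 0.08 in ACHN and -0.37 in 786-O, beside 0.00, 0.00 and -0.01 over all genes.

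Among the other ligands, 12 of 21 tested were higher (25.5% of all genes) and 3 lower (27.0%) in A-498 with the mimic. In ACHN with the inhibitor, 5 of 19 were higher (17.3% of all genes) and 1 lower (14.4%). IL18, a cytokine released by the inflammasome, rose in A-498 (log2 fold change 0.85 ± 0.0601, adjusted p = 3.07e-08), as did IL12A (0.79 ± 0.144, adjusted p = 0.000329) and IL7, a lymphocyte survival factor (0.31 ± 0.110, adjusted p = 0.0286). The IL7 call was lost without control replicate 1 (log2 fold change 0.16, adjusted p = 0.248), without mimic replicate 1 (adjusted p = 0.116) and with DESeq2 (adjusted p = 0.107). CXCL14, a chemokine of epithelia, fell there (-0.88 ± 0.112, adjusted p = 1.24e-05). CSF2, which encodes GM-CSF, was at 0.763 and 0.0894 CPM in control and mimic 786-O. In A-498 it was at 0.153 and 0.167 CPM in the controls (9 counts each) and at 0.592 and 0.618 CPM with the mimic, and it passed the filter there only through the mimic libraries. In ACHN, CSF2 rose from between 8.22 and 10.6 CPM to between 16.8 and 19.0 CPM (0.92 ± 0.0828, adjusted p = 1.13e-07). CXCL16 (0.38 ± 0.0833, adjusted p = 0.00188) and IL32 (0.37 ± 0.0443, adjusted p = 3.62e-06) also rose in ACHN, and CLCF1, a ligand of the IL6 family, fell (-0.28 ± 0.0814, adjusted p = 0.0127), a call lost without control replicate 2 or 3 or inhibitor replicate 3 (adjusted p = 0.0538 to 0.0767).

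Receptor genes fell more often than they rose in A-498, 10 of 16 tested being lower (27.0% of all genes) and 4 higher (25.5%). In ACHN 5 of 12 were higher (17.3% of all genes) and 1 lower (14.4%). ACKR3, a scavenging chemokine receptor, fell in A-498 (log2 fold change -1.72 ± 0.0452, adjusted p = 1.36e-12), as did TNFRSF1A, the main TNF receptor (-0.85 ± 0.0389, adjusted p = 3.16e-10), and IL1R1, the IL1B receptor (-0.58 ± 0.0447, adjusted p = 7.86e-08). SIGIRR, which restrains IL1 receptor signals (0.75 ± 0.0866), TLR4 (0.52 ± 0.0894) and IL6R (0.51 ± 0.0663) rose in A-498. IL1RAP, the shared partner chain of IL1 family receptors, was at 39.0 and 9.58 CPM in control and mimic 786-O. In ACHN it rose from 15.3 ± 0.284 CPM to 28.4 ± 1.47 CPM (SD, n = 3; log2 fold change 0.89 ± 0.0584, adjusted p = 2.12e-09), and in A-498 it fell slightly (-0.21 ± 0.0634, adjusted p = 0.0128). Unlike the chemokine genes, it carries a match to the miR-29 seed, at 811 nt from the stop codon. A match was found in 6 of the 22 receptor genes, TNFRSF1A and IL6R among them, against 14.0% of all canonical 3′ UTRs. The decay factors are given below. In the remaining lists 5 of 47 other ligands, 5 of 31 signalling genes, 5 of 26 effectors and 0 of 10 inflammasome genes had a match. UTR length was not adjusted for. TLR3 (0.37 ± 0.0605) and TLR4 (0.36 ± 0.0859) rose in ACHN, and IL1R1 fell (-0.24 ± 0.0612).

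Signalling genes were mostly higher in A-498 with the mimic, with 20 of 31 higher (25.5% of all genes) and 6 lower (27.0%). In ACHN 10 of 31 were higher (17.3% of all genes) and 3 lower (14.4%). IRAK2, a kinase of the IL1 and Toll-like receptor pathway, rose in A-498 (log2 fold change 1.29 ± 0.0649, adjusted p = 8.78e-10) and in ACHN (0.42 ± 0.042, adjusted p = 4.51e-07). The 786-O mimic library was lower in IRAK2 by a log2 ratio of -0.71. TNFAIP3, the A20 brake on NF-kappaB and itself one of its targets, was at 29.6 and 9.74 CPM in control and mimic 786-O, went from 16.3 ± 2.97 CPM to 28.3 ± 0.978 CPM in A-498 (SD, n = 2; log2 fold change 0.80 ± 0.0916, adjusted p = 4.56e-06), and rose in ACHN (0.66 ± 0.0599, adjusted p = 1.21e-07). Its 3′ UTR has a seed match at 58 nt. RELB, a subunit of the noncanonical pathway, rose in A-498 (0.78 ± 0.0706). TAB1 (-0.84 ± 0.0744), CEBPD (-0.58 ± 0.106) and TRAF3 (-0.50 ± 0.0566) fell in A-498, and of these TAB1 and TRAF3 each have 2 seed matches. In ACHN, CEBPB rose (0.31 ± 0.0917, adjusted p = 0.0131), and NFKBIZ (-0.18 ± 0.0404), CHUK (-0.17 ± 0.0479) and MAP3K7 (-0.16 ± 0.0463) fell. The CEBPB call was lost without control replicate 1 (adjusted p = 0.0547) or 3 (0.0816), and that of MAP3K7 without control replicate 1 (0.0546).

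Factors of mRNA decay, which act on AU-rich transcripts such as those of the chemokines, were split in both lines. Of 18 tested in A-498, 5 were higher (25.5% of all genes) and 7 lower (27.0%). Of the same 18 in ACHN, 5 were higher (17.3% of all genes) and 6 lower (14.4%). The largest change was in DCP2, the enzyme that removes the cap of mRNAs. It was at 242 and 51.9 CPM in control and mimic 786-O, fell in A-498 from between 113 and 122 CPM to between 53.9 and 56.0 CPM (log2 fold change -1.09 ± 0.0488, adjusted p = 2.5e-10), and rose in ACHN from between 60.0 and 65.4 CPM to between 158 and 170 CPM (1.41 ± 0.0499, adjusted p = 5.06e-13). Its 3′ UTR has 2 seed matches, at 1536 nt and 6936 nt from the stop codon. CNOT8, a deadenylase subunit with a seed match at 38 nt, fell in A-498 (-0.70 ± 0.0487) and rose in ACHN (0.17 ± 0.0475), and the exonuclease XRN1, with a match at 583 nt, did likewise (-0.44 ± 0.0547 and 0.29 ± 0.0447). Seed matches were present in 8 of the 18 decay genes, against 14.0% of all canonical 3′ UTRs. The UTRs of these 8 ran from 708 nt (ZFP36) to 8711 nt (DCP2), beside a median of 1064 nt over all genes. A longer UTR has more room for a match, and length was not adjusted for. KHSRP, which promotes decay of AU-rich transcripts, rose in A-498 (0.28 ± 0.0511) and fell in ACHN (-0.26 ± 0.0491), and so did ZFP36L2 (0.27 ± 0.0723 and -0.25 ± 0.0912). ZFP36, known as tristetraprolin, rose in A-498 (0.33 ± 0.0798, adjusted p = 0.0031), and HNRNPD fell in ACHN (-0.33 ± 0.0626). The ACHN call of ZFP36L2 was lost with DESeq2 (adjusted p = 0.0701), with no filter (0.122) and without any single library except inhibitor replicate 2 (0.0548 to 0.136). That of CNOT8 was lost without control replicate 1 (0.0808) or inhibitor replicate 1 (0.0565).

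The nearer match of DCP2 and the match of TNFAIP3 are shown with their GRCh38 windows, since DCP2 had the largest change among the decay genes and TNFAIP3 is a feedback gene with a match that did not fall in A-498. Capitals mark the seed match.
DCP2, chr5:113015010-113015036, plus strand: gtcaccctttTGGTGCTaagcaggaga
TNFAIP3, chr6:137881367-137881393, plus strand: tcagtcatcaTGGTGCTatcctctgaa

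Inflammasome genes, which include the caspase that matures IL1B, were few. In A-498, 3 of 6 tested were higher (25.5% of all genes) and 1 lower (27.0%). In ACHN, 3 of 7 were higher (17.3% of all genes) and 0 lower (14.4%). NLRP1 rose in A-498 (log2 fold change 1.05 ± 0.107) and in ACHN (0.45 ± 0.0567), as did CASP4 (0.43 ± 0.0505 and 0.20 ± 0.0438) and CASP1 (0.33 ± 0.0922 and 0.32 ± 0.089). The CASP1 call was lost in A-498 without control replicate 1 (0.24, adjusted p = 0.0573) and in ACHN without control replicate 3 (adjusted p = 0.0575) or inhibitor replicate 3 (0.0509). GSDMD, the pore protein, was called lower in A-498 (-0.17 ± 0.0584, adjusted p = 0.0279), a call lost when libraries were scaled by total alone (adjusted p = 0.215), without control replicate 1 (-0.10, adjusted p = 0.121) and without mimic replicate 1 (0.225).

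Effector genes, which inflammatory signals induce, were higher in 14 of 23 (25.5% of all genes) and lower in 2 (27.0%) in A-498. In ACHN they were higher in 9 of 19 (17.3% of all genes) and lower in 2 (14.4%). AREG, a ligand of the EGF receptor, rose in A-498 from 3.57 and 3.86 CPM to 16.3 and 16.9 CPM (log2 fold change 2.16 ± 0.0867, adjusted p = 8.68e-11) and fell in ACHN (-0.37 ± 0.0593, adjusted p = 0.000101), the same directions as CXCL2. EREG, a related ligand, moved likewise (1.56 ± 0.236 in A-498 and -0.65 ± 0.0504 in ACHN). The stress cytokine GDF15 rose in A-498 from 77.8 and 91.5 CPM to 245 and 271 CPM (1.61 ± 0.065, adjusted p = 9.35e-11). PTX3, a soluble pattern recognition protein, rose in both A-498 (1.19 ± 0.188) and ACHN (0.94 ± 0.0928), with a 786-O log2 ratio of -2.07. HBEGF, another ligand of the EGF receptor, rose in ACHN (0.30 ± 0.0473). TNFAIP6 (-0.78 ± 0.0757) and CD40 (-0.28 ± 0.0639) fell in A-498. PTX3, HBEGF and CD40 each have 1 seed match and EREG has 2. Of these, CD40 was lower with the mimic in A-498, whereas PTX3, EREG and HBEGF (0.47 ± 0.128) were higher.

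**Figure D5:**
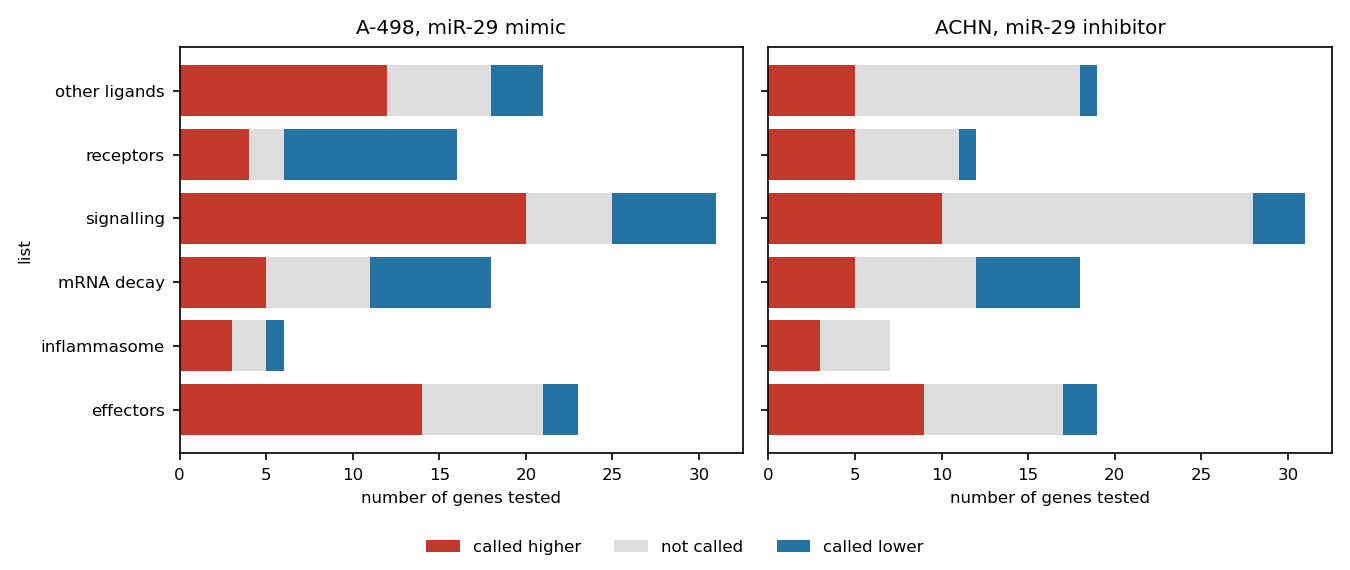
Number of genes tested in each pathway list that were called higher, not called, or called lower in A-498 with the mimic (left) and in ACHN with the inhibitor (right). Signalling genes in A-498 were higher in 20 of 31 (25.5% of all genes) and receptors lower in 10 of 16 (27.0% of all genes).

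The genes most like the members were sought over all 12 libraries, by Pearson r between each of 23411 genes and the mean profile of the members, after centring each line. The 8 highest were CREB5 (r = 0.992), EDA2R (0.991), TRAF1 (0.988), TRIM55 (0.980), ATF3 (0.979), NOCT (0.975), GRIA4 (0.975) and MDM2 (0.974). These values are a description, since the 12 libraries fall into 6 groups and the profile is set mainly by the mimic libraries of 786-O and A-498. The log2 changes of CREB5 in 786-O, A-498 and ACHN, in that order, were -1.37, 1.46 and 0.16, and those of EDA2R were -0.84, 0.89 and 0.16. TRAF1, a signalling adaptor, had -1.83, 2.19 and 0.52, and TRIM55 had -1.17, 1.53 and 0.19. ATF3, a stress-induced factor of the AP-1 dimer family, had -1.28, 2.40 and 0.50. NOCT had -0.48, 0.70 and 0.04, and MDM2 had -0.99, 1.01 and 0.22. GRIA4 had -1.01 in 786-O and 0.31 in ACHN, with no value in A-498. The members themselves were not alike in this measure. CXCL8 (0.981), IL6 (0.977), CXCL1 (0.967), CXCL3 (0.932), CXCL2 (0.895) and CCL20 (0.875) followed the profile, which includes them, whereas CCL2 (0.113), CXCL5 (-0.141) and IL1B (-0.617) did not.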

How the data were processed

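RNA-seq was measured in 12 libraries, grouped by their labels. The authors made stranded, rRNA-depleted libraries, aligned reads with HISAT2 to GRCh38 and obtained HTSeq counts per Ensembl v87 gene, which were deposited as raw counts. The deposited DESeq2 tables hold the authors' own fold changes and p-values and were not used. Of 58051 genes, 56948 had a symbol in GENCODE v44. Summary lines, left out of library sizes, held 45.7% and 48.0% of reads in control and mimic 786-O, and 37.2% to 40.6% in each A-498 and ACHN library. Further A-498 libraries of the mimic experiment, which the study set aside because the samples may have been mislabelled, are not analysed here.

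Counts were tested with edgeR 4.0.16 (R 4.3.3; quasi-likelihood test, TMM, filterByExpr, Benjamini-Hochberg adjustment over all genes, threshold 0.05) within each line and, for control levels, over the 6 controls; alternatives included DESeq2 1.42.0. SE was the log2 fold change divided by the root of F. In 786-O, log2 ratios of CPM used a prior count of 2 and genes with at least 10 counts in both libraries together, with no test. The edgeR steps were tested on simulated data. Biological variation (edgeR's common coefficient) came to 3.83% for A-498 and 5.25% for ACHN. No 2 replicates agreed within sampling noise (chi-square over df of 3.87 to 12.2). No molecular identifiers were described, so floors from counts cover counting error only.

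The members and the lists were chosen with earlier results of these data known. Named pathway genes were, per list and line, up to 3 called genes with the largest rise and 3 with the largest fall among those whose mean log2 CPM reached 1 and whose groups did not overlap, with 1 exception that is not reported here, and the 8 non-members most like the members' mean profile were added. DCP2, TNFAIP3, CSF2 and IL1RAP are given in more detail, chosen after their values were seen. Sequences came from RefSeq tables (GRCh38.p14) and the GRCh38 genome.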

Additional observations from a re-analysis of the deposited data

Results flagged for a closer look

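Genes were flagged where the mimic library of 786-O lay on one side of its control and every A-498 mimic library lay on the other side of every A-498 control. With 1 library per group, any difference in 786-O, however small, meets its part of the rule. The listed genes named for A-498 were picked for groups without overlap there, so they met the A-498 part in advance. The flags are a description of direction only. Only members and genes named from the lists are given, and the share of all genes that meet the rule was not counted. The difference between the lines was not tested for these genes, and 786-O has 1 library per group. The labels name no sequencing run, so a difference in run between the lines could not be examined. Given as the log2 change in 786-O minus that in A-498, the members so flagged were CXCL1 (-3.49), CXCL2 (-2.95), CXCL3 (-3.79), CXCL8 (-5.37) and IL6 (-4.08), for which this pattern was the ground of their choice. Among the ligands named from the lists it was -4.50 for CSF2, -1.21 for IL18 and -0.74 for IL7. Receptors gave -2.19 for TLR4, -1.06 for IL6R and -0.80 for SIGIRR, whose log2 ratio in 786-O was only -0.05 (32 counts in the control, 31 with the mimic). Signalling genes gave -2.40 for TNFAIP3, -2.00 for IRAK2, -1.19 for RELB, -0.63 for CEBPB and -0.38 for NFKBIZ. Inflammasome genes gave -1.41 for CASP1 and -0.80 for CASP4. Effectors gave -3.25 for PTX3, -3.11 for AREG, -2.81 for HBEGF, -2.38 for EREG and -2.18 for GDF15, and TNFAIP6 differed in the other direction (1.54). Groups of 3 or fewer libraries were not examined for libraries that stand apart.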

How the results depend on the processing

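The counts of members called in ACHN (2 higher, 1 lower) held under DESeq2, scaling by total alone, no filter, thinning to the shallowest library (an alternative added after seeing the data), the replicate block and each left-out library. Same-numbered ACHN libraries did not deviate together (correlations 0.04, -0.05 and -0.00 over 17904 genes), and with the replicate block the listed genes gave 36 higher and 14 lower calls, against 37 and 13. No paired analysis was possible for the mimic lines because A-498 groups share only replicate number 1 and 786-O has 1 library per group. Members at least 2-fold lower in A-498 went from 0 to 1 with no filter, which lets in CXCL5 on 1 count. Members at least 2-fold lower in 786-O went from 5 to 4 with a prior count of 10 or scaling by total alone, which drop CXCL2, and to 6 with no filter, which lets in CCL20 on 2 counts. Listed genes at least 2-fold higher in 786-O went from 6 to 3 with a prior count of 10 and to 14 with no filter. The sign of uncalled values turned in ACHN for CXCL3 (-0.06 to 0.15 without single libraries, -0.01 when thinned) and for CXCL8 (0.01 with no filter, -0.20 to 0.10 without single libraries), and for IL6 between control 786-O and ACHN (-0.03 by total alone, -0.00 with no filter). Over left-out libraries the listed genes gave 48 to 58 higher and 27 to 35 lower calls in A-498, and 29 to 34 higher and 11 to 15 lower in ACHN. Calls of IL7, GSDMD, CLCF1, CEBPB, MAP3K7, CNOT8, ZFP36L2 and CASP1 were lost under at least 1 alternative, that of CASP1 in both A-498 and ACHN. Depth limits treated against control for CXCL6 in every line, CCL20 in 786-O, IL1B in 786-O and ACHN, and CXCL5 in A-498 and ACHN, where counts were 0 to 4.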
